A study of Mus musculus with 6 samples.

Results

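The transcripts of the pre-mRNA cleavage and polyadenylation factors were followed from pachytene/diplotene spermatocytes (P/D spermatocytes) to round spermatids (RS) of the mouse testis. Of 10 listed genes (Cstf1, Cstf2t, Cstf3, Cpsf2, Cpsf3, Cpsf6, Fip1l1, Wdr33, Nudt21 and Clp1), 9 were found by symbol among the 6985 named genes of the tables, on 12 of 12114 contigs, and these held 1209 reads. A contig is a reference sequence to which reads were aligned. Of all contigs, 11517 were annotated transcripts, as were those of the members, and 597 were repeat elements. Cpsf6 was not analysed here.

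The samples were 3 of P/D spermatocytes and 3 of RS, sorted by Hoechst fluorescence and light scatter from the testes of adult male mice that the labels give as genotype C57BL/6J/B6. No sample carried a mutation or received a treatment, and each was a pool of mRNA from 3 mice. The study's reporting summary states that spermatocytes and spermatids were taken from the same animals, so the groups are not independent animals, but no source used here ties a P/D pool to the RS pool of its number. Native RNA was read by nanopore from its 3′ end, so each read gave the transcript and the poly(A) tail of a single molecule. The P/D samples were barcoded and run as 1 library and the RS samples as another, so cell type and library cannot be told apart. The depth was 244004 to 305950 reads in P/D and 316653 to 474688 reads in RS. The marker genes of round spermatids, which included Prm1 and Tnp1, took 0.101 to 0.118% of the P/D reads and 1.21 to 1.59% of the RS reads. The spermatocyte list took 0.238 to 0.28% of the P/D reads and 0.133 to 0.155% of the RS reads, although its members Spag6 and Ccna1 were not lower in RS. Sertoli cell markers had at most 2 reads in a sample, the Leydig cell list had 1 to 7 reads, all of Insl3, and none of the listed spermatogonial markers had a contig. By the study's own microscopy the P/D gate was a mixture in which P/D spermatocytes were enriched. It was less pure than the RS gate, so P/D values include reads of other cells.

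The mammalian 3′ end processing machinery cuts the nascent pre-mRNA and hands the new end to poly(A) polymerase. CPSF reads the AAUAAA signal and holds the endonuclease, CstF binds U- or GU-rich sequence downstream of the cut, CFIm binds UGUA motifs upstream of it, and CFIIm joins for cleavage. Male germ cells are known for an unusual use of these signals, with many shortened 3′ UTRs and many ends that lack the canonical hexamer. They also express Cstf2t, an autosomal, intronless copy of the X-linked Cstf2, whose chromosome is silenced in meiosis. The factors are themselves made from polyadenylated mRNA, and it is the tails of these mRNAs that are described here.

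The annotated ends of the transcripts the results turn on are shown because each is the annotated site where the machinery would act on the mRNA of its own subunit. They are the last 30 bases of the GENCODE vM21 transcript on GRCm38, 5′ to 3′, with the hexamer AATAAA or ATTAAA in capitals. Cstf1 ends at chr2:172382419-172382448 (plus strand), Cpsf2 at chr12:102006395-102006424 (plus), Cstf2t at chr19:31087040-31087069 (plus), and its paralog Cstf2 at chrX:134086790-134086819 (plus). Nudt21 has a distal end at chr8:94015496-94015525 and a proximal end at chr8:94019448-94019477, and Clp1 a proximal end at chr2:84723122-84723151 and a distal end at chr2:84722104-84722133, all on the minus strand.
Cstf1: tctaaAATAAAttttttttatataacagtg
Cpsf2: tatttcgctaataAATAAAagatgctgagc
Cstf2t: acaaaatataacagttctttgcattaagac
Cstf2: ctgtcgtggattcAATAAAtattttaaaag
Nudt21 distal: gttatttcAATAAAaatatttaaaactgaa
Nudt21 proximal: ttgtacATTAAAgaaagtgaatttcttatt
Clp1 proximal: attattttAATAAAtatgattgtgatagaa
Clp1 distal: taagtatacAATAAAtttaaccttttcttc
All of these ends but that of the Cstf2t transcript held a hexamer. Of 10 member contigs searched on the transcript strand, 6 held AATAAA, 1 held ATTAAA and 3 held neither (Cstf2t, Cpsf3 and Fip1l1). The Wdr33 contigs were left out of this member count. Over 11344 annotated contigs, 53.1% held AATAAA, 14.8% held ATTAAA and 66.3% held at least 1 of them in the same window. The ends of reads were not in the tables used, so these are annotated ends and not measured ones.

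Across the 9 genes, accumulation did not move one way. Cstf1 and Clp1 were higher in RS, Nudt21 and Wdr33 were slightly lower without passing the test, and Cstf2t, Cpsf3 and Cstf3 had few RS reads and were below the filter on low counts. Of the 9 genes with reads, 4 passed that filter (edgeR's filterByExpr), and of these 2 were higher, 0 lower and 2 did not pass edgeR's quasi-likelihood test at an adjusted p of 0.05. Over all 4967 genes tested, 34.7% were called higher in RS and 31.2% lower. Here and below, an annotated contig without a symbol counts as a gene of its own. By contig, 4 of 12 were tested, 1 was higher (Cstf1) and 0 were lower, where 32.6 and 30.8% of all 6005 contigs were. Accumulation is given below as CPM, the reads of a gene scaled to 1000000 reads of the sample, and log2 fold changes are RS over P/D after TMM scaling. In these bulk samples, fewer cells of a type and less RNA per cell cannot be told apart.

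**Figure D1:**
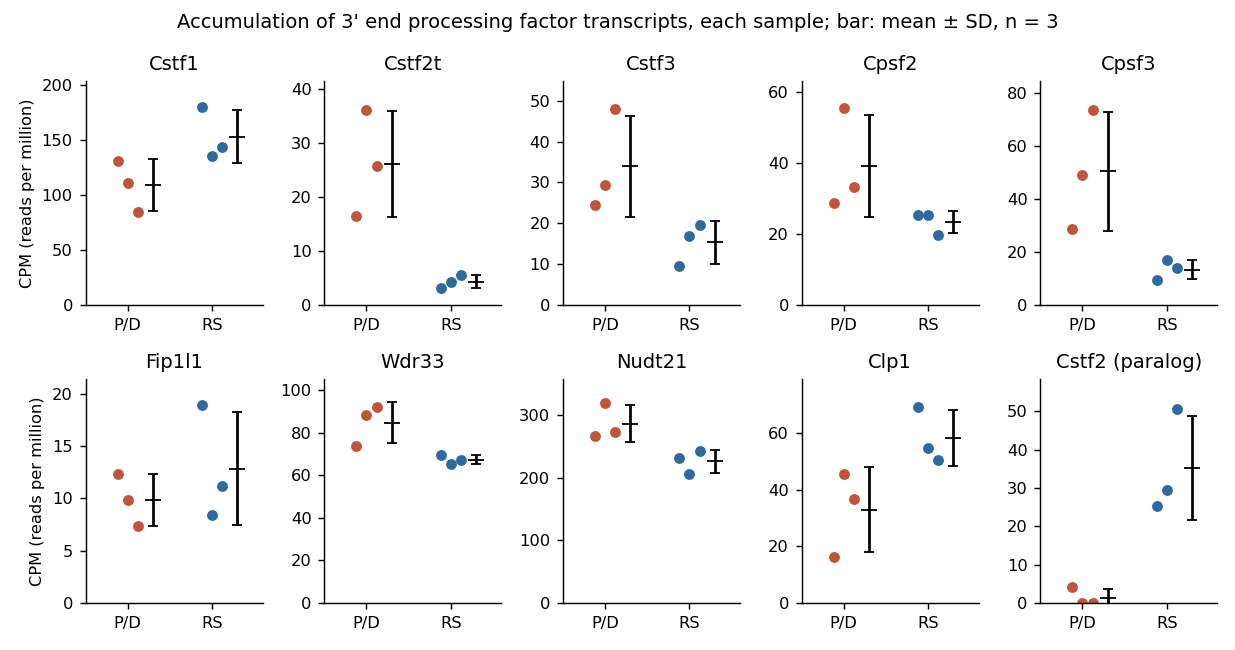
Reads scaled to 1000000 per sample (CPM, vertical axis, from 0, a scale of its own in each panel) of each gene in the 3 P/D and 3 RS samples, summed over its contigs; points are samples and the black bar is the mean ± SD. Cstf1, Clp1 and the paralog Cstf2 sit higher in every RS sample, Cstf2t, Cstf3, Cpsf2, Cpsf3, Wdr33 and Nudt21 sit lower in every RS sample, and Fip1l1 overlaps. The share of all genes whose samples separate in this way is not given here, so this does not set the members apart. The main test called 34.7% of all genes tested higher in RS and 31.2% lower, and Wdr33 and Nudt21 did not pass it.

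Cstf1, the WD-repeat subunit of CstF, was the only member past the threshold in both main tests, of accumulation and of tails. Its transcript ENSMUST00000116375 lies on chromosome 2 from 172370734 to 172382448, has 6 exons and carries a 3′ UTR of 1832 bases. It had 32, 34 and 23 reads in P/D and 57, 64 and 51 reads in RS. This was 131, 111 and 84.8 CPM in P/D and 180, 135 and 143 in RS. The groups did not overlap, although the lowest RS sample lay close to the highest P/D sample. The log2 fold change was 0.57 (SE 0.21, edgeR adjusted p = 0.0176). The call was lost with DESeq2 (0.61, adjusted p = 0.077), without P/D replicate 3 (0.41, edgeR adjusted p = 0.128) and without RS replicate 1 (0.45, edgeR adjusted p = 0.0796).

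The own tail of Cstf1 was 99.8, 97 and 94.7 nt on average in P/D and 161, 163 and 160 nt in RS. Each of the 6 means rested on at least 23 reads, and no RS mean came near a P/D mean. The difference was 64.3 nt (SE 4.64, limma adjusted p = 2.53e-04), with a 95% interval of 52.9 to 75.6 nt. Of the 5407 genes tested, 83.6% had a smaller tail difference than Cstf1. The middle 50% of the reads spanned 57.7 to 116 nt in P/D and 143 to 186 nt in RS. Tails of 120 to 210 nt made up 21.9, 17.6 and 21.7% of the Cstf1 reads in P/D and 71.9, 81.2 and 84.3% in RS. Over all reads of the gene these were 18 of 89 (20.2%, Wilson 95% interval 13.2 to 29.7%) and 136 of 172 (79.1%, 72.4 to 84.5%), intervals that cover counting error only.

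Cstf2t encodes the testis-enriched form of the RNA-binding subunit of CstF, and male mice that lack it are known to be infertile. Its transcript ENSMUST00000066039 is a single exon on chromosome 19 (31082837 to 31087069, plus strand) with a 3′ UTR of 2108 bases. It had 4, 11 and 7 reads in P/D and 1, 2 and 2 reads in RS. Every RS sample, at 3.16, 4.21 and 5.62 CPM, was below every P/D sample, at 16.4, 36 and 25.8. The ratio of the pooled read rates, RS over P/D, was 0.163 with an exact 95% interval of 0.0481 to 0.44, which covers counting error only. Cstf2t was below the filter on low counts. With no filter its log2 fold change was -2.47 (SE 0.65, edgeR adjusted p = 4.12e-04), and DESeq2 gave -2.46 (adjusted p = 0.0234).

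The X-linked paralog Cstf2, which is not among the 10 genes, lay the other way. Its transcript ENSMUST00000033609 (chromosome X, 134059197 to 134086819, 14 exons) had 1, 0 and 0 reads in P/D and 8, 14 and 18 reads in RS. A count of 0 allows up to 9.81 and 11.1 CPM at the depth of P/D replicates 2 and 3. The ratio of pooled rates was 28.6, with a wide exact 95% interval of 4.85 to 1159 because it rests on a single P/D read. With no filter the log2 fold change was 4.50 (SE 0.80, edgeR adjusted p = 7.71e-08), and DESeq2 gave 4.87 (adjusted p = 9.78e-04).

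Set side by side, the paralogs held opposite shares in the cell types. Cstf2t made up 4 of 5, 11 of 11 and 7 of 7 reads of the pair in P/D, and 1 of 9, 2 of 16 and 2 of 20 in RS. Pooled, this was 22 of 23 reads (95.7%, exact 95% interval 78.1 to 99.9%) in P/D and 5 of 45 (11.1%, 3.71 to 24.1%) in RS. None of these reads was listed on more than 1 contig. The tails of the Cstf2t reads averaged 115, 115 and 117 nt in P/D. Its RS means of 337, 168 and 210 nt rest on 1 or 2 reads each and are given only for completeness. The Cstf2 reads of the RS samples had mean tails of 210, 159 and 188 nt, and its only P/D read had a tail of 154 nt.

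**Figure D2:**
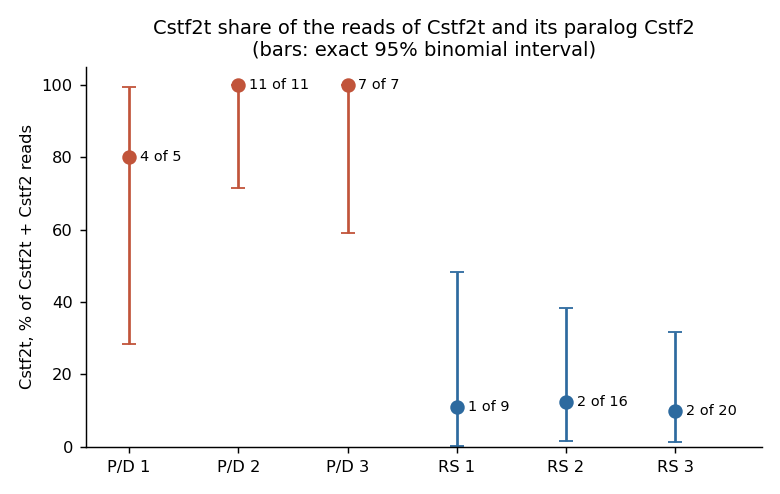
Cstf2t as a percent of the summed Cstf2t and Cstf2 reads (vertical axis, %) in each of the 6 samples, with exact 95% binomial intervals as bars and the reads beside each point. The P/D samples sit at 80 to 100% and the RS samples at 10 to 12.5%.

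Cstf3, the scaffold that joins the CstF subunits, had 6, 9 and 13 reads in P/D and 3, 8 and 7 reads in RS on ENSMUST00000028599 (chromosome 2, 104590523 to 104665429, 21 exons). Its level was 24.6, 29.4 and 47.9 CPM in P/D and 9.47, 16.9 and 19.7 in RS. The groups were separate but close, with a pooled ratio of 0.46 (exact 95% interval 0.24 to 0.862). Cstf3 was below the filter. With no filter the log2 fold change was -1.06 (edgeR adjusted p = 0.0344), and DESeq2 gave an adjusted p of 0.208. Its tails were 140, 128 and 127 nt in P/D and 175, 142 and 132 nt in RS, and they overlapped. The 95% interval of the difference, from the fit with no read minimum, ran from -12.5 to 48.4 nt (17.9 nt, limma adjusted p = 0.283).

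Among the CPSF subunits, the endonuclease Cpsf3 had the lowest ratio of RS to P/D reads. Its transcript ENSMUST00000067284 (chromosome 12, 21286358 to 21315056, 18 exons) had 7, 15 and 20 reads in P/D and 3, 8 and 5 reads in RS. At 28.7, 49 and 73.7 CPM in P/D and 9.47, 16.9 and 14 in RS, every RS sample was below every P/D sample. The pooled ratio was 0.273 (exact 95% interval 0.143 to 0.495). Cpsf3 was also below the filter on low counts. With no filter the log2 fold change was -1.81 (SE 0.42, edgeR adjusted p = 5.86e-05), and DESeq2 gave -1.76 (adjusted p = 0.0129).

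The tails of Cpsf3 overlapped between the cell types. The means were 93.2, 91.9 and 99.3 nt in P/D and 91.1, 112 and 107 nt in RS. Cpsf3 entered the tail test through its P/D reads, since 0 RS samples had 10 reads. The difference was 8.56 nt (SE 7.01, limma adjusted p = 0.343), with a 95% interval of -8.56 to 25.7 nt. Tails of 120 to 210 nt were 12 of 42 reads (28.6%, Wilson 95% interval 17.2 to 43.6%) in P/D and 2 of 16 (12.5%, 3.5 to 36%) in RS.

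Cpsf2, the catalytically inactive partner of the nuclease, had 7, 17 and 9 reads in P/D and 8, 12 and 7 reads in RS on ENSMUST00000047357 (chromosome 12, 101975988 to 102006424, 15 exons, 3′ UTR of 3206 bases). Its level was 28.7, 55.6 and 33.2 CPM in P/D and 25.3, 25.3 and 19.7 in RS. The ratio of 0.586 had an exact 95% interval of 0.339 to 1.00, and with no filter the log2 fold change was -0.72 (edgeR adjusted p = 0.11). The tails of Cpsf2 stood further apart than its counts. They averaged 100, 107 and 88.7 nt in P/D and 155, 170 and 197 nt in RS, without overlap. Cpsf2 had 10 reads in only 1 sample of each cell type and so was below the read minimum of the tail test. With no minimum the difference was 75.5 nt (SE 12.3, limma adjusted p = 0.00383), with a 95% interval of 45 to 106 nt. Tails of 120 to 210 nt were 10 of 33 reads (30.3%, Wilson 95% interval 17.4 to 47.3%) in P/D and 17 of 27 (63%, 44.2 to 78.5%) in RS.

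Wdr33, the subunit that contacts the AAUAAA signal, was read on both of its contigs. Summed over them it had 18, 27 and 25 reads in P/D and 22, 31 and 24 reads in RS, or 73.8, 88.2 and 92.1 CPM against 69.5, 65.3 and 67.4. All RS values were below the P/D values by a small margin, and the log2 fold change of -0.24 (SE 0.25) did not pass the test (edgeR adjusted p = 0.407). The long contig ENSMUST00000025264 (22 exons) had 16, 19 and 17 reads in P/D and 19, 29 and 21 in RS, with a log2 fold change of -0.03 (SE 0.28, edgeR adjusted p = 0.93). The short contig ENSMUST00000234344 ends within the gene after 6 exons, at position 31835422 of chromosome 18, and has 936 coding bases against 3990 in the long one. It held 2, 8 and 8 reads in P/D and 3, 2 and 3 in RS. Its share of the Wdr33 reads was 11.1, 29.6 and 32% in P/D and 13.6, 6.45 and 12.5% in RS, which overlapped (exact permutation test, two-sided, p = 0.3).

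The mean tails of Wdr33 were 98.3, 108 and 101 nt in P/D and 108, 108 and 120 nt in RS. The difference of 9.48 nt (SE 5.95, limma adjusted p = 0.224) had a 95% interval of -5.06 to 24 nt. On the log2 scale the difference of 0.24 passed the test (limma adjusted p = 0.0113), while that of the medians was -0.192 nt (limma adjusted p = 0.986).

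Fip1l1, which tethers poly(A) polymerase to CPSF, was read only on ENSMUST00000135377. GENCODE lists this 4987-base contig (chromosome 5, 74535484 to 74540566, 2 exons) as a retained intron with no coding sequence, so these reads do not measure the coding mRNA. There were 3, 3 and 2 reads in P/D and 6, 4 and 4 reads in RS, or 12.3, 9.81 and 7.37 against 18.9, 8.43 and 11.2 CPM, which overlapped. The tails averaged 134, 76.8 and 71 nt in P/D and 174, 152 and 195 nt in RS. With no read minimum the tail difference was 79.5 nt (SE 20.3, limma adjusted p = 0.0206) on 8 P/D and 14 RS reads.

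Nudt21, the UGUA-binding subunit of CFIm, had the most reads of the 9 genes. It had 65, 98 and 74 reads in P/D and 73, 98 and 86 reads in RS. Its level was 266, 320 and 273 CPM in P/D and 231, 206 and 242 in RS. The groups did not overlap, but the log2 fold change was small at -0.26 (SE 0.16) and did not pass the test (edgeR adjusted p = 0.148).

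The tails of Nudt21 differed little in the mean. They were 107, 120 and 115 nt in P/D and 126, 115 and 123 nt in RS, which overlapped. The difference was 6.93 nt (SE 6.15, limma adjusted p = 0.38), with a 95% interval of -8.09 to 22 nt. That interval lies below the median difference of 35 nt over the 5407 genes tested, and 21.6% of those genes had a smaller difference. The middle 50% of the reads spanned 63.6 to 158 nt in P/D and 82.4 to 157 nt in RS. Tails of 120 to 210 nt were 77 of 237 reads (32.5%, Wilson 95% interval 26.8 to 38.7%) in P/D and 99 of 257 (38.5%, 32.8 to 44.6%) in RS.

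Nudt21 is annotated with a long and a short 3′ UTR, of 4190 bases on ENSMUST00000034204 (chromosome 8, 94015496 to 94037031, minus strand) and 238 bases on ENSMUST00000212981 (94019448 to 94037006). Nearly all reads were on the long form, with 65, 95 and 74 in P/D and 70, 92 and 83 in RS. Its own log2 fold change was -0.36 (SE 0.16, edgeR adjusted p = 0.0506, or 0.0429 with the replicate number as a block), and its own tail difference was 6.25 nt (SE 6.87, limma adjusted p = 0.476). The short form held 0, 3 and 0 reads in P/D and 3, 6 and 3 in RS. Its share of the Nudt21 reads was 3 of 237 (1.27%, Wilson 95% interval 0.431 to 3.65%) in P/D and 12 of 257 (4.67%, 2.69 to 7.98%) in RS. Every RS sample had the larger share, at 4.11, 6.12 and 3.49% against 0, 3.06 and 0%, and the two-sided exact permutation test gave p = 0.1, the smallest that 3 samples against 3 allow.

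Clp1, the RNA kinase subunit of CFIIm, was higher in RS. It had 4, 14 and 10 reads in P/D and 22, 26 and 18 reads in RS. At 16.4, 45.8 and 36.9 CPM in P/D and 69.5, 54.8 and 50.6 in RS, the groups did not overlap. Clp1 had at least 10 reads in 2 P/D and 3 RS samples. The log2 fold change was 0.85 (SE 0.34, edgeR adjusted p = 0.0244). The call was lost with DESeq2 (0.92, adjusted p = 0.114), without P/D replicate 1 (0.56, edgeR adjusted p = 0.168) and without RS replicate 1 (0.73, edgeR adjusted p = 0.0832).

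Most Clp1 reads were on the form with the 3′ UTR of 427 bases, ENSMUST00000028475 (chromosome 2, 84723122 to 84727350, minus strand), with 3, 11 and 10 reads in P/D and 19, 20 and 15 in RS. On its own this contig had a log2 fold change of 0.73 (SE 0.37) and did not pass the test (edgeR adjusted p = 0.0779). The form with the 3′ UTR of 1187 bases, ENSMUST00000165219, held 4 of 28 reads in P/D and 12 of 66 in RS (exact permutation test of the shares, two-sided, p = 0.9). The tails of Clp1 averaged 102, 86.4 and 103 nt in P/D and 110, 114 and 108 nt in RS. The RS means were all above the P/D means, but the difference of 13.4 nt (SE 6.47, 95% interval -2.43 to 29.2 nt) did not pass the test (limma adjusted p = 0.128).

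**Figure D3:**
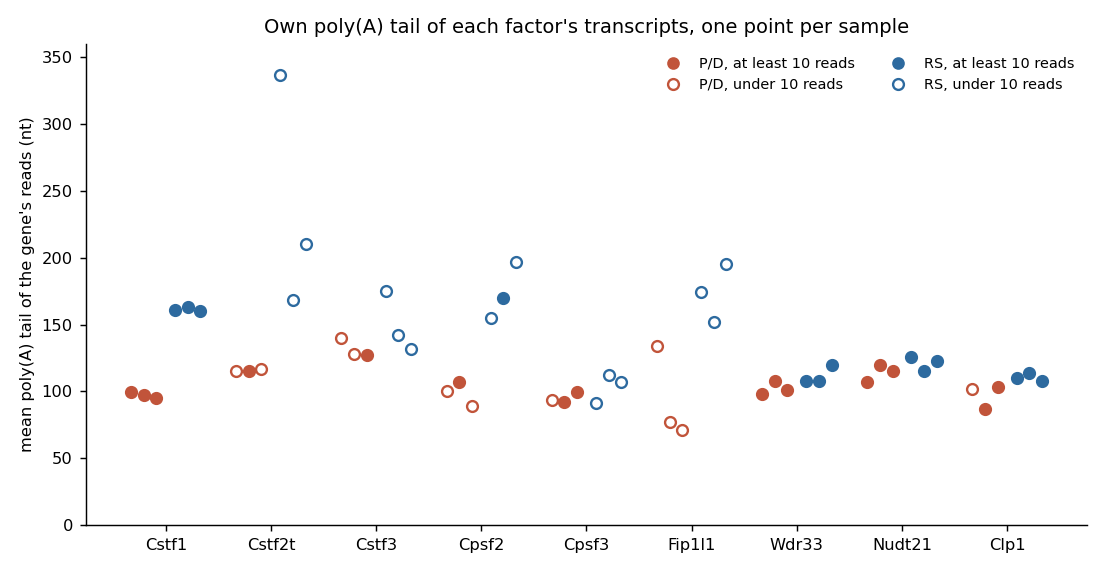
Mean poly(A) tail (nt, vertical axis from 0) of the reads of each gene in each of the 3 P/D and 3 RS samples; filled points rest on at least 10 reads and open points on fewer. Cstf1 rises from 94.7 to 99.8 nt in P/D to 160 to 163 nt in RS, while Nudt21 lies between 107 and 126 nt in all 6 samples.

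Taking the tails of the 9 genes as a set, 5 met the read minimum, which was at least 10 reads in 2 replicates of 1 cell type with a mean in 2 replicates of each. Of the 5, 1 was longer in RS (Cstf1), 0 were shorter and 4 did not pass. Over all 5407 genes tested, 54.8% were called longer and 2.07% shorter. By contig, 5 of 12 were tested, 1 was longer (Cstf1) and 0 were shorter, where 54.2 and 1.69% of all 6990 contigs were. The median difference of the 5 members was 9.48 nt beside 35 nt over all genes. With no read minimum, the members left out had differences of 75.5 nt (Cpsf2), 79.5 nt (Fip1l1), 123 nt (Cstf2t) and 17.9 nt (Cstf3). All rest on few reads. In that fit Cpsf2 and Fip1l1 passed (limma adjusted p = 0.00383 and 0.0206), and Cstf2t and Cstf3 did not (limma adjusted p = 0.057 and 0.283). The 4 that did not pass the main test (Clp1, Wdr33, Cpsf3 and Nudt21) had 95% intervals whose upper ends, 29.2, 24, 25.7 and 22 nt, were below the median of 35 nt. These intervals weigh each replicate mean alike, whatever its reads. The RS means of Cpsf3 rest on only 3, 8 and 5 reads, so its interval cannot place it against that median. The mean of Clp1 in P/D replicate 1 rests on 4 reads. The median gene had a mean tail of 113 to 117 nt in P/D and 154 to 160 nt in RS, so the RS means of these 4 genes, at 91.1 to 126 nt, were near the P/D level of the median gene.

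**Figure D4:**
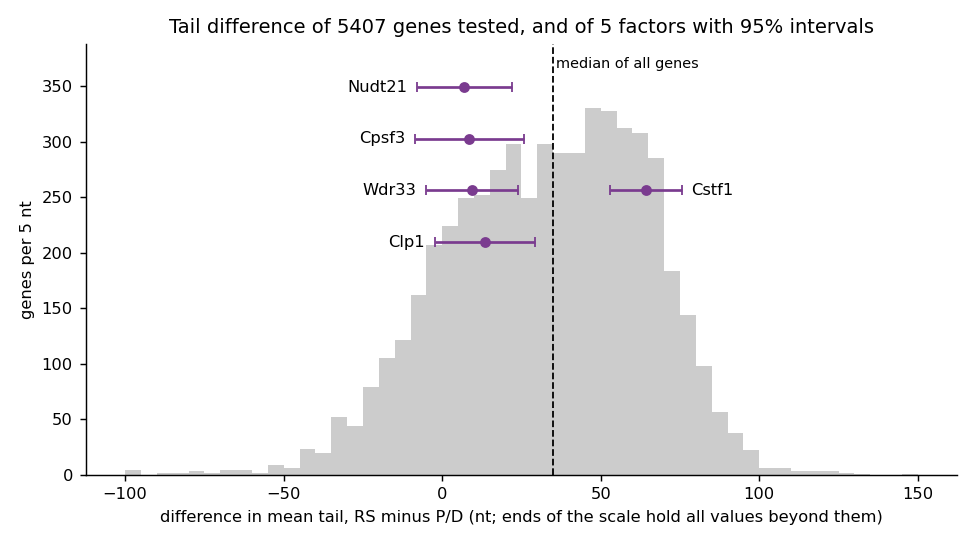
Grey bars count the 5407 genes tested by their difference in mean tail, RS minus P/D (horizontal axis, nt; bins of 5 nt), with a dashed line at the median of 35 nt. Points are the 5 factors tested with their 95% intervals (their height has no meaning). Cstf1 lies at 64.3 nt, and Nudt21, Cpsf3, Wdr33 and Clp1 lie at 6.93 to 13.4 nt.

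Pooled over the 9 genes, reads with tails of 120 to 210 nt made up 32.9, 28.5 and 29% of the member reads in P/D and 51.3, 45.1 and 51.5% in RS. Among all deposited reads the same class took 30.3, 30 and 28.5% in P/D and 67.8, 66.4 and 68.3% in RS. The member share was close to that of all reads in P/D and below it in RS, a comparison that was not tested. The difference between the cell types was 19.2 percentage points for the members (exact permutation test, two-sided, p = 0.1, the smallest possible) and 37.9 points for all reads. Tails of 30 to 120 nt took 61.2% ± 2.47 (SD, n = 3) of member reads in P/D and 42.3% ± 3.87 (SD, n = 3) in RS. These pooled values lean on Nudt21 and Cstf1, which held 237 and 89 of the P/D reads and 257 and 172 of the RS reads.

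**Figure D5:**
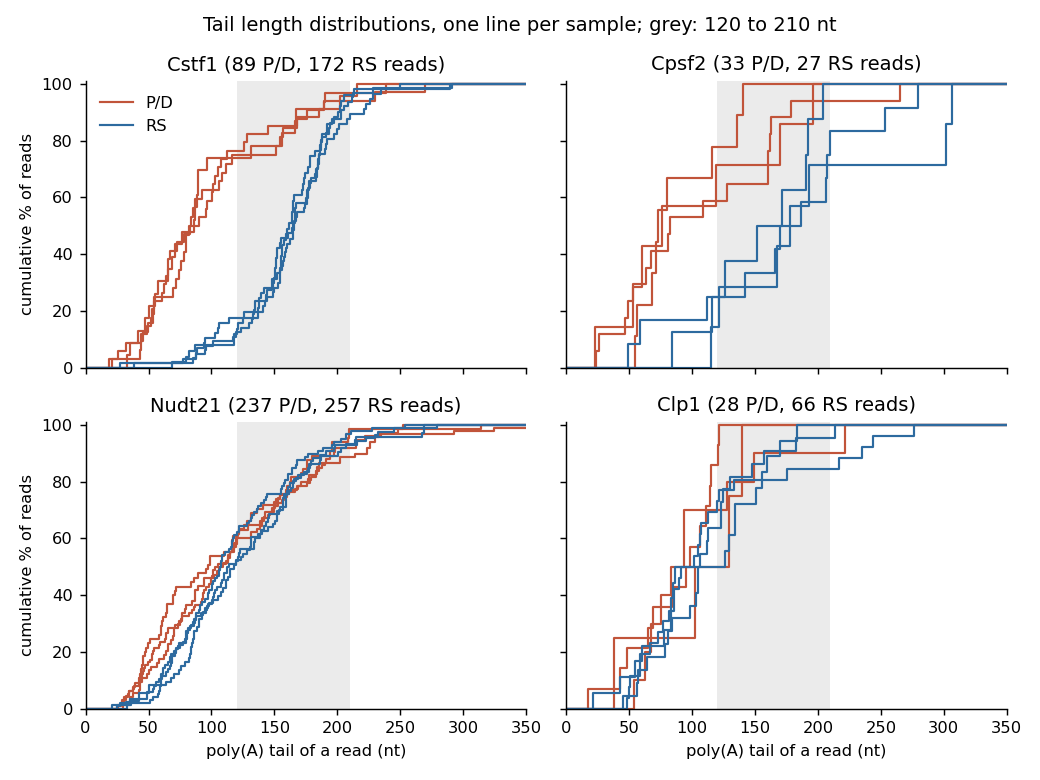
Cumulative percent of reads (vertical axis) by tail length in nt (horizontal axis) for Cstf1, Cpsf2, Nudt21 and Clp1, with a line for each of the 3 P/D and 3 RS samples and the class of 120 to 210 nt in grey. The RS lines of Cstf1 lie far to the right of its P/D lines, with 79.1% of all RS reads in the grey class beside 20.2% in P/D, whereas those of Nudt21 run together (38.5 and 32.5%).

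To set the members in their pathway, 22 other genes of 3′ end processing were listed, and 14 of these had reads. Of the 10 tested for accumulation, 5 were higher in RS (34.7% of all genes were), 2 were lower (31.2% of all genes were) and 3 did not pass. Those higher were Xrn2, the exonuclease that ends transcription past the cut, Pabpn1, the nuclear poly(A)-binding protein that sets tail length during synthesis, the poly(A) polymerase gene Papola, Rbbp6, an activator of cleavage, and Pcf11, the partner of Clp1 in CFIIm. Xrn2 had 5, 5 and 6 reads in P/D and 14, 36 and 27 in RS, a log2 fold change of 1.86 (SE 0.37, edgeR adjusted p = 2.76e-05). Pabpn1 had 17, 15 and 10 reads in P/D and 51, 75 and 55 in RS, a log2 fold change of 1.72 (SE 0.25, edgeR adjusted p = 8.70e-08). The log2 fold changes of Papola, Rbbp6 and Pcf11 were 1.06, 1.03 and 1.00.

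For several of these genes the sum over contigs hid which transcript was read. Of the Papola reads, 19 of 37 in P/D and 60 of 101 in RS were on ENSMUST00000166735, a form of 9 exons with 879 coding bases. The form ENSMUST00000109901, with 22 exons and 2217 coding bases, had only 8 reads in P/D and 13 in RS. It was below the filter on low counts, and with no filter its log2 fold change was 0.21 (edgeR adjusted p = 0.823). Another 10 and 28 reads were on ENSMUST00000169938, which GENCODE lists under nonsense-mediated decay. On its own, the Pcf11 contig ENSMUST00000119954 did not pass the accumulation test (log2 fold change 0.57, edgeR adjusted p = 0.0778). Pcf11 reads on the contig ENSMUST00000151177 numbered 0, 0 and 1 in P/D and 7, 9 and 13 in RS. Its share was 1 of 45 Pcf11 reads (2.22%) in P/D and 29 of 118 (24.6%) in RS, with no overlap between samples (exact permutation test, two-sided, p = 0.1, the smallest possible).

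The 2 lower genes were Ssu72, a phosphatase of the RNA polymerase II tail, and Slbp, which binds the stem-loop of histone mRNA and was named after its values were seen. Ssu72 had 12, 24 and 14 reads in P/D and 3, 2 and 1 in RS, a log2 fold change of -3.35 (SE 0.46, edgeR adjusted p = 4.04e-08). Slbp had 40, 71 and 63 reads in P/D and 40, 61 and 46 in RS, a log2 fold change of -0.62 (SE 0.19, edgeR adjusted p = 0.0039). The contig ENSMUST00000057551 of Slbp fell (log2 fold change -3.56, edgeR adjusted p = 4.19e-09) and the contig ENSMUST00000075670 did not pass the test (0.27, edgeR adjusted p = 0.285). The share of the former contig among the Slbp reads was 90 of 174 (51.7%) in P/D and 10 of 147 (6.8%) in RS. The Slbp sum did not pass with DESeq2 (-0.59, adjusted p = 0.0523).

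Of the 11 other genes tested for tails, 4 were longer in RS (54.8% of all genes were), 0 were shorter (2.07% of all genes were) and 7 did not pass. Sympk, the scaffold of the histone and poly(A) cleavage complexes, went from 86.9, 92.2 and 84.9 nt in P/D to 137, 150 and 157 nt in RS, a difference of 60 nt (SE 6.88, limma adjusted p = 6.31e-04). Zc3h14, a nuclear poly(A)-binding protein, went from 101, 98.9 and 106 nt to 153, 148 and 156 nt, a difference of 50.4 nt (SE 5.12, limma adjusted p = 4.21e-04). Pabpn1 was longer by 35 nt (limma adjusted p = 0.00995) and Pcf11 by 28.9 nt (limma adjusted p = 0.0453). The Pcf11 call was lost with no read minimum (limma adjusted p = 0.0606) and without P/D replicate 1 or 2 or RS replicate 1 or 3 (limma adjusted p = 0.0839, 0.0939, 0.122 and 0.127). For both Sympk and Zc3h14 the samples did not overlap, as for Cstf1, while their summed accumulation did not pass the test (log2 fold changes of -0.14 and 0.06). The sum for Zc3h14 held a contig that rose, ENSMUST00000021399, a form of 7 exons with 5, 4 and 3 reads in P/D and 31, 39 and 38 in RS (log2 fold change 2.71, edgeR adjusted p = 2.72e-08).

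By contig, 15 of the other genes' 25 were tested for tails, and 6 were longer and 1 shorter in RS, where 54.2 and 1.69% of all 6990 contigs were. The shorter was Slbp ENSMUST00000057551, with mean tails of 150, 177 and 178 nt in P/D and of 99 and 114 nt in RS replicates 2 and 3, which had 9 reads and 1 read, while RS replicate 1 had 0 reads. Its difference was -61.4 nt (SE 11.8, limma adjusted p = 0.00827), which could not be tested once RS replicate 2 or 3 was left out. The other Slbp contig, ENSMUST00000075670, was longer, at 140, 133 and 125 nt in P/D and 159, 159 and 160 nt in RS (26.2 nt, SE 6.07, limma adjusted p = 0.0114).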

How the data were processed

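The authors basecalled reads with Guppy, demultiplexed them with Deeplexicon, aligned them with minimap2 to GENCODE vM17 transcripts (GRCm38) and estimated tails with Nanopolish, keeping reads that passed its quality check. The minimap2 version in the submitters' processing notes was 2.20-r1061, whereas the study's methods name a later version. The raw counts of reads on each contig were deposited without normalization, beside a second table with the tail length of each read in nt. Counts equalled the rows of that table for every contig and sample.

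Contigs were assigned to genes by the deposited symbols, ignoring case, and an annotated contig without a symbol was kept as a gene of its own. Repeat-element contigs were left out of the fits. Contig and gene counts were tested over the annotated contigs with edgeR 4.0.16 (TMM, filterByExpr, glmQLFit and glmQLFTest). Mean tails were tested with limma's lmFit and eBayes (version 3.58.1, R 4.3.3), both with Benjamini-Hochberg adjustment at 0.05. DESeq2 1.42.0 was an alternative. Pooled percentages were compared with two-sided exact permutation tests. The fits were tested on simulated data. Annotation came from GENCODE vM21, on the same build. The members, gene lists and tests were chosen with earlier results of these data known. Named genes were all members, each member contig with at least 10 reads in 2 replicates of a cell type, Cstf2, and the other 3′ end genes past the threshold, at most 6 by fold change and 4 by tail difference. Single contigs with fewer reads, Slbp, single contigs of the other genes and the contig shares were added after their values were seen. The other alternatives were RLE size factors, other filters on counts and reads, single-contig reads, a replicate block, medians, log2 tails, tails of 10 to 300 nt, weights by reads, the methods' t-test, other class bounds, equal weight of genes and leaving out each sample.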

Additional observations from a re-analysis of the deposited data

How the results depend on the processing

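Read number limits most of these values: 5 of the 9 genes were below the count filter. With no filter on counts, 2 member genes were higher and 3 lower in RS and, by contig, 5 were lower and 0 higher. DESeq2 called 0 higher and 2 lower, by gene and by contig. Requiring 10 counts in every sample left 1 gene higher. Without 1 replicate at a time, the genes higher in RS numbered 0 to 2 and those lower 0 to 1, the contigs higher 0 to 1 and those lower 0 to 2. With no read minimum, 3 member genes and 3 contigs had longer tails, and on the log2 scale 2 genes did. Leaving out a replicate kept 1 longer and 0 shorter, and the tail difference of Cstf1 stayed between 63 and 65.6 nt. The Wdr33 tail difference turned to -0.192 nt with medians. The cause of these shifts was not tested. The share of all genes or contigs called under each alternative is not given here, so these counts do not set the members apart. Of the other 3′ end processing genes, 4 of 11 had longer tails. Over the alternatives the smallest share was 3 of 11 (the methods' t-test, and without RS replicate 3). The largest share was 2 of 3 (20 reads in every sample), and weights by reads gave 6 of 11.

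Weighting the member genes equally gave a difference of -23.7 percentage points for tails of 30 to 120 nt and 14.5 for 120 to 210 nt. Bounds of 120 and 180 nt gave 14.9. Without 1 replicate at a time these differences were -21 to -17.3 and 18.1 to 21.3.

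The replicate number as a block changed 1 member call: by contig, 1 was lower, the long Nudt21 form (-0.36, edgeR adjusted p = 0.0429). All 4 tested genes stayed on their side of the threshold with the replicate block (2 higher, 0 lower), as did all 5 tested for tails (1 longer). Both cell types came from the same mice by the study's reporting summary, but no source used here says that a number marks the same pool. Same-numbered samples correlated in their deviations at 0.0261, 0.24 and 0.0706 for accumulation, where only P/D replicate 2 correlated best with its own number, and at -0.0106, 0.0771 and 0.0157 for tails.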
